A study of Mus musculus with 8 samples.

Results

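Expression of Toll-like receptors and adaptors was examined in mouse endometrium, the lining of the uterus. The set comprised 10 genes of the 52325 in the deposited table: the receptor genes Tlr1, Tlr2, Tlr3, Tlr4, Tlr5, Tlr6, Tlr7 and Tlr9, the co-receptor gene Cd14 and the adaptor gene Myd88. They were chosen by name, each through its Ensembl identifier, by a rule that uses no measured value but was set with earlier results of these data known. RNA was sequenced from endometrium cut by laser from frozen uterine sections, with 4 libraries of wild-type (WT) females and 4 libraries of Thra1PV/+ females, all in metestrus, the phase of the estrous cycle that follows estrus. Thra1PV/+ mice carry the PV mutation, a frameshift at the C-terminal end of thyroid hormone receptor α1, in 1 allele of Thra, knocked in so that all cells carry it, and the mutant receptor acts in a dominant negative manner. The age and strain of these mice are not given in the sources used here. The libraries match in number the mice per genotype that the methods describe, but the labels do not tie each library to an animal, so the p-values measure the spread between these libraries.

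Toll-like receptors are membrane proteins that bind conserved molecules of microbes. TLR2, paired with TLR1 or TLR6, binds bacterial lipopeptides, TLR4 together with CD14 and MD-2 binds lipopolysaccharide, TLR5 binds flagellin, and TLR3, TLR7 and TLR9 bind nucleic acids inside endosomes. MyD88 passes the signal of these receptors, other than TLR3, to kinases that activate NF-κB and interferon regulatory factors, whereas TLR3 signals through TRIF. In the female reproductive tract the receptors are known from epithelial cells, stromal cells and resident leukocytes.

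Tlr1 and Tlr6 lie side by side on chromosome 5 and share coding sequence, and this bears on how their reads could be assigned. Of the 3322 distinct stretches of 31 bases in Tlr1 transcripts, 665 (20.0%) also occurred in transcripts of another gene, and 607 of these were in Tlr6. Tlr6 had 616 such stretches of 3709 (16.6%). Tlr4 shared 31 of 5547 (0.559%), mostly with Olfr804, and the other 7 genes shared 0. The longest identical coding stretch, 229 bases, is printed once because it is the same in both genes. It covers coding bases 1468 to 1696 of Tlr1 (chr5:64925537-64925765, minus strand, GRCm38) and coding bases 1507 to 1735 of Tlr6 (chr5:64953828-64954056, minus strand, GRCm38).
Tlr1 and Tlr6: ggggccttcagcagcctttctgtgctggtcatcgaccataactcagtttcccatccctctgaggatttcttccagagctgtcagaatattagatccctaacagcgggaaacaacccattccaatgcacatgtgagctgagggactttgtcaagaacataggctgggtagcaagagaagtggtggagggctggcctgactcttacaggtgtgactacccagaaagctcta
A read that falls within this stretch does not tell the genes apart, so the values of Tlr1 and Tlr6 rest on how salmon divided such reads. They are given below as uncertain in that respect, with their sum beside them.

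The libraries held between 48791602 and 59818887 estimated counts. Markers of simple epithelium were abundant in all 8 libraries, and so were markers of stroma. The libraries differed in tissue composition within a genotype and between genotypes. WT library 1 stood apart with 11926 counts per 1e+06 (CPM, with library sizes scaled by TMM) summed over 5 smooth muscle markers, against 124 to 1038 in the other 7 libraries. Thra1PV/+ library 2 had the lowest sum over 6 stroma markers, 373 CPM, against 873 to 3844 in the other 7. Markers of squamous epithelium divided the genotypes completely, at 2797 to 4254 CPM in Thra1PV/+ and 0.992 to 54.1 CPM in WT endometrium, and all 5 were called higher. All 5 smooth muscle, 6 stroma and 4 blood markers had fitted differences below 0 in Thra1PV/+ endometrium. Of these, 0 were called, against 0.066% of all tested genes called lower. At an unadjusted p-value under 0.05 in edgeR, 5, 1 and 2 of them passed, against 4.72% of all tested genes. Whether an expression value belongs to the genotype or to the squamous cells and other tissue shifts that came with it cannot be told apart here. Thra itself ranged from 45.8 to 127 CPM in Thra1PV/+ libraries and from 47.4 to 110 CPM in WT libraries, but a count per gene does not separate the mutant allele from the normal one.

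All 10 genes were expressed above the filter on low counts, and 0 of 10 was called different between Thra1PV/+ and WT endometrium. A call required a change of at least 2-fold together with a Benjamini-Hochberg adjusted p-value of no more than 0.1 in edgeR's quasi-likelihood test. Of all 18174 tested genes, 0.99% were called, 0.924% higher and 0.066% lower in Thra1PV/+ endometrium, beside 0 of 10 in either direction here. At an unadjusted p-value under 0.05, 0 of the 10 passed in edgeR, against 9.77% of all genes, and DESeq2 called 0 of the 10, against 3.58% of the genes it tested. The adjusted p-values of the 10 genes lay between 0.596 and 0.988. For each gene the ranges of the genotypes overlapped, while 6.04% of all genes had no overlap. Of the 10 fitted differences, 6 were above 0 and 4 below, with a median log2 fold change of 0.28, beside -0.05 over all tested genes. These libraries do not bound the differences tightly, since for 0 of the 10 genes did the 95% interval lie wholly within a 2-fold change. The interval reached a 2-fold higher level for 6 genes and a 2-fold lower level for 5. In such bulk tissue, fewer cells of a type and less RNA per cell cannot be told apart.

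Levels were compared between genes as CPM per kilobase of exon, averaged over the 8 libraries. Cd14 was the most abundant at 158, ranging from 63.4 to 332 between libraries. Myd88 came next at 26.5 (16.7 to 51.3), and both gaps, Cd14 over Myd88 and Myd88 over Tlr2, were found in 8 of 8 libraries. Tlr2 was the most abundant receptor gene at 13.0 CPM per kilobase (2.77 to 21.5), above Tlr4 in 7 of 8 libraries. Tlr4 (5.25), Tlr3 (4.88) and Tlr1 (4.31) followed closely, and the order within this trio held in only 6 of 8 libraries for either step, so these 3 did not differ beyond their spread. Tlr1 exceeded Tlr5 in 8 of 8 libraries. Tlr5 (1.33), Tlr6 (0.871) and Tlr7 (0.704) formed a lower group, in which each step again held in 6 of 8 libraries. Tlr9 was the least abundant at 0.282 CPM per kilobase (0.0817 to 0.824), below Tlr7 in 8 of 8 libraries.

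**Figure D1:**
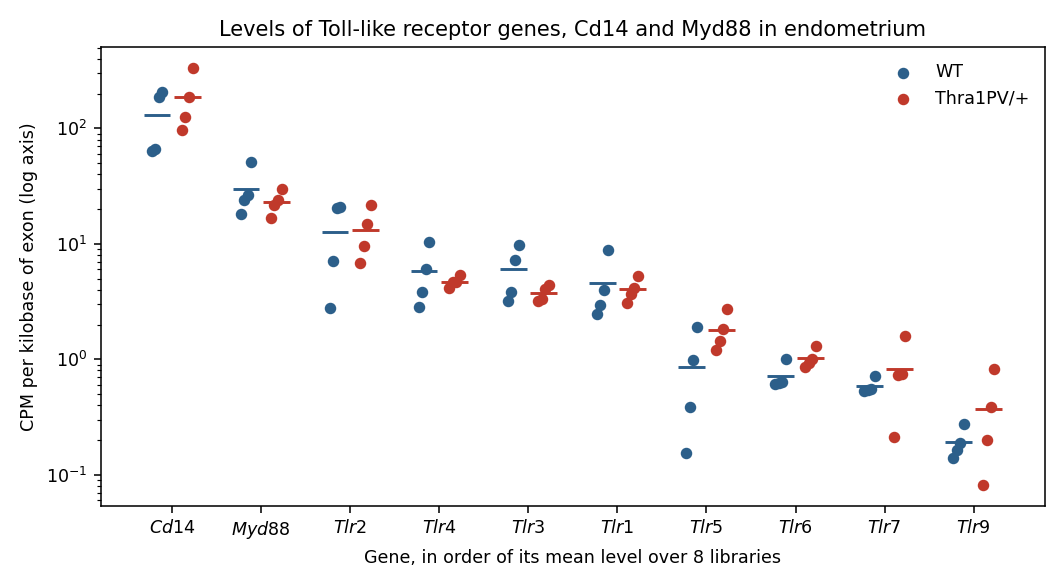
Levels of the 10 genes as CPM per kilobase of exon on a log axis, with 1 point per library, blue for WT and red for Thra1PV/+, and a bar at the mean of the 4 libraries. Cd14 averages 158 and Tlr9 0.282 over the 8 libraries, and the points of the genotypes overlap for each gene.

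The receptors of bacterial lipopeptides showed no genotype difference beyond the spread between libraries. Tlr2 (ENSMUSG00000027995.10, GRCm38 chromosome 3, 83836272 to 83841767, minus strand), the partner common to both lipopeptide receptor pairs, had 20.6, 64.9, 45.1 and 28.9 CPM in Thra1PV/+ libraries 1 to 4 and 21.5, 8.36, 61.4 and 62.3 CPM in WT libraries 1 to 4. WT library 2 was the lowest of all and Thra1PV/+ library 2 the highest, a 7.77-fold span, and the genotypes overlapped. Means were 39.9 ± 19.6 CPM (SD, n = 4) in Thra1PV/+ and 38.4 ± 27.6 CPM (SD, n = 4) in WT endometrium. The log2 fold change of Tlr2 was 0.06 (SE 0.62, 95% interval -1.37 to 1.48, edgeR adjusted p = 0.988), and the exact two-sided permutation test over 70 arrangements gave p = 0.714, where 0.0286 is the smallest it can give. The sign turned without Thra1PV/+ library 2 (-0.28), without Thra1PV/+ library 3 (-0.01), without WT library 1 (-0.10) or without WT library 2 (-0.24).

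Tlr1 (ENSMUSG00000044827.10, chromosome 5, 64924679 to 64933563, minus strand), whose product pairs with TLR2 on triacylated lipopeptides, had 13.9, 10.2, 12.3 and 17.5 CPM in Thra1PV/+ and 8.28, 9.95, 29.8 and 13.3 CPM in WT libraries. WT library 3 was the highest, WT libraries 1 and 2 lay below the Thra1PV/+ range and WT library 4 inside it, so the genotypes overlapped. Tlr1 averaged 13.5 ± 3.09 CPM against 15.3 ± 9.89 CPM (SD, n = 4 each), with a log2 fold change of -0.18 (SE 0.41, edgeR adjusted p = 0.931) that became 0.38 without WT library 3. Tlr6 (ENSMUSG00000051498.6, chromosome 5, 64952031 to 64960097, minus strand), the partner of TLR2 on diacylated lipopeptides, had 3.76, 4.83, 3.49 and 3.19 CPM in Thra1PV/+ and 2.29, 2.35, 3.72 and 2.34 CPM in WT libraries. WT libraries 1, 2 and 4 of Tlr6 clustered below the lowest Thra1PV/+ library and WT library 3 lay inside the Thra1PV/+ range. The means were 3.82 ± 0.714 CPM and 2.68 ± 0.697 CPM (SD, n = 4 each), and the log2 fold change of 0.51 (SE 0.28, 95% interval -0.13 to 1.16) did not pass the test (edgeR adjusted p = 0.618; exact permutation p = 0.0857). Tlr6 by itself stayed above 0 in each of 16 other settings, at 0.25 to 0.73. With the counts of Tlr1 and Tlr6 added together, the log2 fold change was -0.06 (SE 0.36, edgeR adjusted p = 0.979). Most of the added counts were those of Tlr1, so this sum does not bear on the sign of Tlr6.

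Among the genes for sensing lipopolysaccharide and flagellin, Cd14 and Tlr5 had the higher means in Thra1PV/+ endometrium and Tlr4 the lower, none past the test. Cd14 (ENSMUSG00000051439.6, chromosome 18, 36725067 to 36726798, minus strand), which hands lipopolysaccharide to the TLR4 complex, had 166, 575, 327 and 218 CPM in Thra1PV/+ and 110, 114, 360 and 321 CPM in WT libraries. Thra1PV/+ library 2 was the highest, WT libraries 1 and 2 were the lowest, and the other 5 libraries lay between them with the genotypes mixed. Mean Cd14 was 322 ± 182 CPM in Thra1PV/+ and 226 ± 133 CPM in WT endometrium (SD, n = 4 each). For Cd14 the log2 fold change was 0.51 (SE 0.52, 95% interval -0.69 to 1.70, edgeR adjusted p = 0.822; exact permutation p = 0.429). It was -0.14 when WT library 1 and Thra1PV/+ library 2, which stood apart on smooth muscle and stroma, were both left out.

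Tlr4 (ENSMUSG00000039005.13, chromosome 4, 66827584 to 66930284, plus strand), the signaling receptor for lipopolysaccharide, had 25.9, 29.6, 26.0 and 23.2 CPM in Thra1PV/+ and 21.4, 15.9, 58.0 and 33.3 CPM in WT libraries. The Thra1PV/+ libraries lay close together and inside the much wider WT range, whose top was WT library 3. Tlr4 averaged 26.2 ± 2.62 CPM against 32.1 ± 18.7 CPM (SD, n = 4 each), with a log2 fold change of -0.30 (SE 0.37, 95% interval -1.14 to 0.55, edgeR adjusted p = 0.857) that became 0.17 without WT library 3. Ly96, which encodes the MD-2 subunit of the TLR4 complex and was named for that role after its values were seen, had a log2 fold change of 0.07 (SE 0.43, edgeR adjusted p = 0.978).

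Tlr5 (ENSMUSG00000079164.8, chromosome 1, 182954788 to 182976044, plus strand) had the largest fitted difference among the 10 genes. Its values were 5.82, 13.1, 8.81 and 6.93 CPM in Thra1PV/+ and 1.85, 0.74, 9.13 and 4.73 CPM in WT libraries. WT libraries 1, 2 and 4 lay below the lowest Thra1PV/+ library, whereas WT library 3 was above 3 of the 4 Thra1PV/+ libraries, so the genotypes overlapped. Mean Tlr5 was 8.67 ± 3.22 CPM in Thra1PV/+ and 4.11 ± 3.74 CPM in WT endometrium (SD, n = 4 each), and the lowest library, WT library 2, held 41 counts of the gene. The log2 fold change of 1.08 (SE 0.69, 95% interval -0.51 to 2.66) did not pass the test (edgeR adjusted p = 0.673; exact permutation p = 0.143). It stayed above 0 in each of the 16 other settings, at 0.59 to 1.85, and was highest without WT library 3.

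Of the endosomal receptors of nucleic acids, Tlr3 had the lower mean in Thra1PV/+ endometrium and Tlr7 and Tlr9 the higher, again none past the test. Tlr3 (ENSMUSG00000031639.12, chromosome 8, 45395665 to 45411080, minus strand), the receptor of double-stranded RNA, had 17.4, 21.1, 23.0 and 16.8 CPM in Thra1PV/+ and 16.6, 19.8, 50.8 and 37.7 CPM in WT libraries. WT libraries 3 and 4 were above all Thra1PV/+ libraries, while WT libraries 1 and 2 fell in or just below the Thra1PV/+ range. Tlr3 averaged 19.6 ± 2.98 CPM against 31.2 ± 16.0 CPM (SD, n = 4 each), with a log2 fold change of -0.67 (SE 0.35, 95% interval -1.48 to 0.13, edgeR adjusted p = 0.596; exact permutation p = 0.343). This was the smallest adjusted p-value of the 10 genes, and the sign held in each of 16 other settings, at -0.90 to -0.32. Tlr3 shares 381 exonic bases with the antisense gene Gm45542, which had at most 0.0817 CPM in any library.

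Tlr7 (ENSMUSG00000044583.13, chromosome X, 167304929 to 167330558, minus strand), a receptor of single-stranded RNA, had 6.56, 0.873, 3.04 and 3.01 CPM in Thra1PV/+ and 2.90, 2.26, 2.15 and 2.20 CPM in WT libraries. Thra1PV/+ library 1 was the highest and Thra1PV/+ library 2 the lowest of all 8, a 7.51-fold span within the genotype, against 1.35-fold within WT. The means of Tlr7 were 3.37 ± 2.35 CPM and 2.38 ± 0.352 CPM (SD, n = 4 each), with a log2 fold change of 0.50 (SE 0.53, edgeR adjusted p = 0.826). It was 0.00 without Thra1PV/+ library 1 and 0.82 without Thra1PV/+ library 2. Tlr9 (ENSMUSG00000045322.10, chromosome 9, 106222598 to 106226883, plus strand), the receptor of unmethylated CpG DNA, had 2.86, 0.284, 1.35 and 0.700 CPM in Thra1PV/+ and 0.572, 0.650, 0.955 and 0.481 CPM in WT libraries. The order of the Thra1PV/+ libraries was again 1 at the top and 2 at the bottom, with a 10.1-fold span, and all 4 WT libraries lay between them. Tlr9 rested on 14 to 156 counts per library, and its log2 fold change was 0.97 (SE 0.66, 95% interval -0.54 to 2.47, edgeR adjusted p = 0.693), with means of 1.30 ± 1.13 CPM and 0.665 ± 0.205 CPM (SD, n = 4 each). It was 0.27 without Thra1PV/+ library 1 and 1.30 without Thra1PV/+ library 2.

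Myd88 (ENSMUSG00000032508.8, chromosome 9, 119335934 to 119341411, minus strand), the adaptor that recruits IRAK kinases to the receptors, had 43.1, 76.5, 61.5 and 55.6 CPM in Thra1PV/+ and 46.7, 132, 67.7 and 62.0 CPM in WT libraries. WT library 2 was far above the rest, and the other 7 libraries overlapped between 43.1 and 76.5 CPM. Mean Myd88 was 59.2 ± 13.8 CPM in Thra1PV/+ and 77.2 ± 37.8 CPM in WT endometrium (SD, n = 4 each). The log2 fold change of Myd88 was -0.38 (SE 0.33, 95% interval -1.13 to 0.37, edgeR adjusted p = 0.772; exact permutation p = 0.514) and became 0.04 without WT library 2. The gene overlaps Acaa1a on the opposite strand by 290 exonic bases, and Acaa1a had 87.0 to 150 CPM, highest in WT library 2 as well. The libraries were stranded, but the strand setting of salmon is not given in the sources used here, so a share of reads from Acaa1a in the Myd88 value was not tested.

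**Figure D2:**
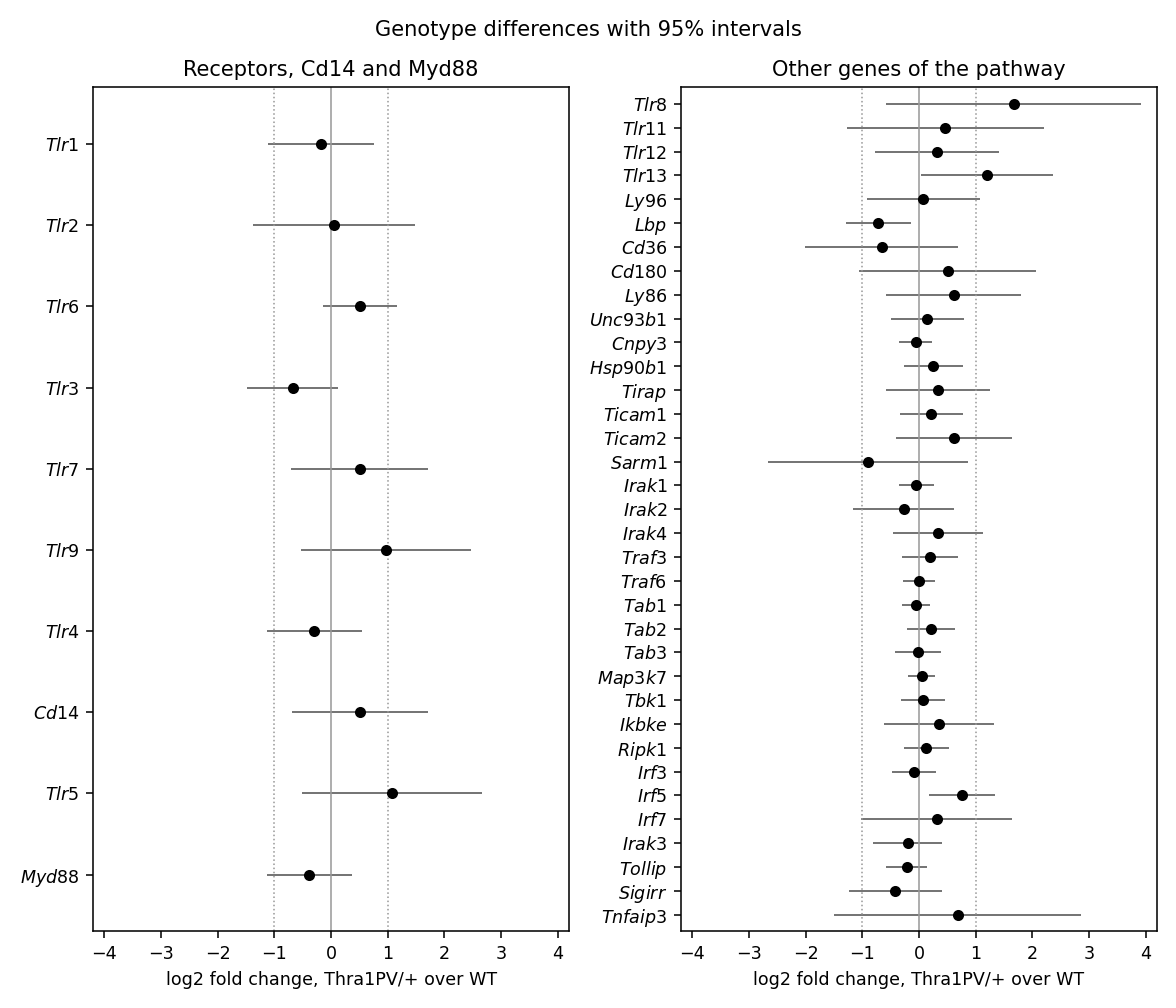
Log2 fold changes of Thra1PV/+ over WT endometrium with 95% intervals from edgeR, for the 10 genes on the left and 35 other genes of the pathway on the right, with dotted lines at a 2-fold change. Tlr5 is highest on the left at 1.08 and Tlr3 lowest at -0.67, and each of the 10 intervals on the left includes 0.

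The rest of the pathway was read from a list of 35 genes, all of which were tested. By the same rule edgeR and DESeq2 each called 0 of 35, against 0.99% and 3.58% of all the genes they tested. At an unadjusted p-value under 0.05 edgeR gave 2 higher and 1 lower in Thra1PV/+ endometrium, against 5.05% and 4.72% of all genes. The median log2 fold change was 0.15, with 22 genes above 0 and 13 below. The 12 kinases, ubiquitin ligases and adaptors of the kinase TAK1, among them Irak1, Traf6 and Map3k7, had a median of 0.06. For 9 of 12 the 95% interval lay within a 2-fold change, unlike any of the receptor genes. Tab2, an adaptor of TAK1, was at 0.21 (SE 0.19, edgeR adjusted p = 0.778) and Irak4, the kinase that MyD88 binds first, at 0.33 (SE 0.35, edgeR adjusted p = 0.824).

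All 4 other receptor genes, Tlr8, Tlr11, Tlr12 and Tlr13, had fitted differences above 0, with a median of 0.83. Tlr13, a receptor of bacterial ribosomal RNA, had 10.3, 9.78, 9.38 and 3.47 CPM in Thra1PV/+ and 4.92, 1.72, 1.99 and 5.73 CPM in WT libraries. Thra1PV/+ libraries 1 to 3 were above all WT libraries and library 4 fell among them. Tlr13 had a log2 fold change of 1.20 (SE 0.51, 95% interval 0.03 to 2.36) with an edgeR adjusted p = 0.499, so it was not called. Tlr8 was at 1.67 (SE 0.98, edgeR adjusted p = 0.643), with 3.91 CPM in Thra1PV/+ library 1 and 0.122 CPM in Thra1PV/+ library 2.

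Among co-receptors and trafficking genes, Lbp, which encodes the lipopolysaccharide-binding protein that loads CD14, had 120, 162, 153 and 218 CPM in Thra1PV/+ and 166, 323, 292 and 290 CPM in WT libraries. WT libraries 2 to 4 were above all Thra1PV/+ libraries and WT library 1 fell among them. The log2 fold change of Lbp was -0.72 (SE 0.25, 95% interval -1.29 to -0.14, edgeR adjusted p = 0.393; exact permutation p = 0.0571), opposite in sign to that of Cd14. Ly86, which encodes the MD-1 protein that binds CD180, was at 0.61 (SE 0.52, edgeR adjusted p = 0.769). Of the adaptors, Ticam2, which links TLR4 to TRIF, was at 0.62 (SE 0.45, edgeR adjusted p = 0.715) and Sarm1 at -0.90 (SE 0.77, edgeR adjusted p = 0.773).

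Irf5, a transcription factor that MyD88-dependent signaling activates, was the only 1 of the 35 genes without overlap between genotypes, against 6.04% of all tested genes. It had 19.7, 19.7, 17.9 and 15.5 CPM in Thra1PV/+ and 14.7, 8.18, 7.22 and 12.9 CPM in WT libraries. All 4 Thra1PV/+ libraries were above the highest WT library, by a narrow margin. The means were 18.2 ± 1.98 CPM and 10.7 ± 3.60 CPM (SD, n = 4 each), and the log2 fold change of 0.76 (SE 0.26, 95% interval 0.18 to 1.34) was below 2-fold and had an edgeR adjusted p = 0.365. Its exact permutation p = 0.0286 is the smallest this design can give. Irf7, which is induced by interferon, was at 0.31 (SE 0.58, edgeR adjusted p = 0.912). The 4 inhibitors of the pathway had a median of -0.21, with Tollip at -0.22 (SE 0.16, edgeR adjusted p = 0.714) and Sigirr at -0.42 (SE 0.36, edgeR adjusted p = 0.775).

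Genes known to rise after receptor stimulation were read from a list of 19, of which 16 were tested and Il6, Ifnb1 and Il12b were below the filter. By edgeR 0 of 16 was called and 0 had an unadjusted p-value under 0.05, and DESeq2 called 0, beside 0.99%, 9.77% and 3.58% of all genes by the same rules. The median log2 fold change was 0.39 with 10 above 0 and 6 below. Il1b, a proinflammatory cytokine, had 40.8, 138, 58.2 and 13.1 CPM in Thra1PV/+ and 8.72, 0.722, 4.32 and 32.4 CPM in WT libraries. WT library 4 lay inside the Thra1PV/+ range and the other 3 WT libraries lay below it. The log2 fold change of Il1b was 2.44 (SE 1.08, 95% interval -0.04 to 4.92, edgeR adjusted p = 0.522), and that of Ccl2, a chemokine for monocytes, was -2.30 (SE 1.25, edgeR adjusted p = 0.615).

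These response genes varied more between libraries of 1 genotype than the receptors did. The median within-genotype SD was 1.84 on the log2 CPM scale over the 16 response genes, 0.73 over the 10 receptor and adaptor genes, 0.46 over the 35 other pathway genes and 0.45 over all tested genes. The extremes fell on few libraries. Of the 16 response genes, 14 were lowest in WT library 2 and 10 were highest in Thra1PV/+ library 2, and WT library 4 was highest for 4 others. The chemokine gene Cxcl2, named after its values were seen, was 0.199 CPM in WT library 2, 46.5 CPM in WT library 4 and 256 CPM in Thra1PV/+ library 2. WT library 2 was likewise the lowest library for Tlr2, Tlr4 and Tlr5, and Thra1PV/+ library 2 the highest for Tlr2, Tlr5, Tlr6 and Cd14. Neutrophil markers, summed, were also highest in Thra1PV/+ library 2 and lowest in WT library 2. Of the 10 markers 6 were tested, Mmp8, Ngp and Camp were below the filter and Elane was at 0 in all libraries. The sum over the 10 was 722 CPM in Thra1PV/+ library 2 and 7.94 CPM in WT library 2. It ranged from 74.7 to 722 CPM in Thra1PV/+ and from 7.94 to 127 CPM in WT libraries. The sum was 12.4 CPM in WT library 3, the highest library for Tlr1, Tlr3 and Tlr4. S100a8 (188 CPM) and S100a9 (412 CPM) made up most of the sum in Thra1PV/+ library 2. Csf3r was at 69.4 CPM in Thra1PV/+ library 2 and 3.38 CPM in WT library 2, whereas Ly6g was level at 0.832 and 0.831 CPM. The part of these markers in the library differences was not tested.

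The 10 genes themselves fell into patterns across the 8 libraries, seen as deviations from each gene's mean level. Tlr1, Tlr3 and Tlr4 were highest in WT library 3, by 1.16, 1.12 and 1.09 on the log2 scale. Tlr2, Cd14 and Tlr5 were low in WT libraries 1 and 2 and high in WT library 3 and Thra1PV/+ library 2. Tlr7 and Tlr9 were high in Thra1PV/+ library 1 and low in Thra1PV/+ library 2, the reverse of Cd14. Within genotypes, Tlr5 (SD 1.16) and Tlr2 (SD 1.11) varied most and Tlr6 (SD 0.30) least on the log2 CPM scale. For 8 of the 10 genes the WT libraries were the more variable, and for Tlr7 and Tlr9 the Thra1PV/+ libraries were.

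**Figure D3:**
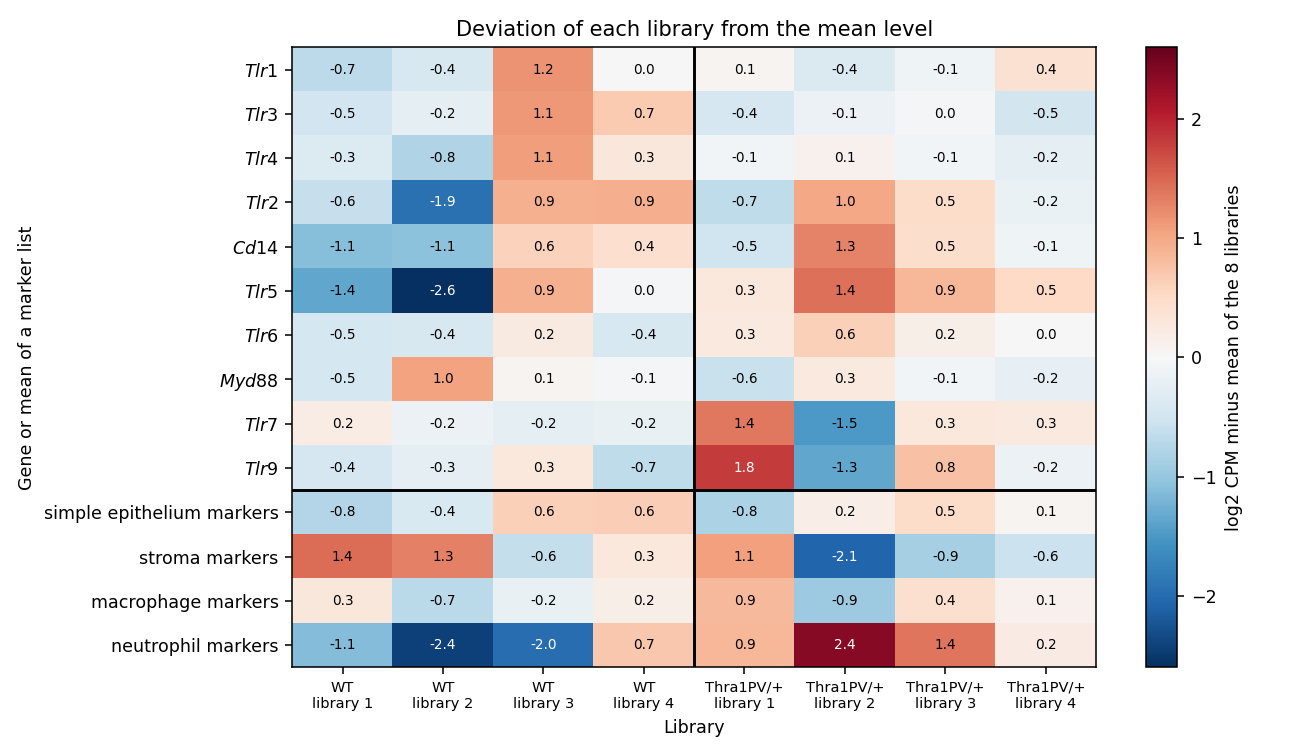
Deviation of each library from the mean log2 CPM over the 8 libraries, in log2 units, for the 10 genes above the line and for the mean of 4 marker lists below it, with WT libraries on the left and Thra1PV/+ libraries on the right. Tlr1, Tlr3 and Tlr4 peak in WT library 3, and Tlr7 and Tlr9 peak in Thra1PV/+ library 1.

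To describe which cell markers moved with each gene, the log2 CPM of the 10 genes was correlated over the 8 libraries with the mean log2 CPM of 4 marker lists, macrophage, neutrophil, simple epithelium and stroma, which gave 40 relations. These lists were picked for the purpose after the values were seen. By Pearson's r, 0 of 40 relations had a Benjamini-Hochberg adjusted permutation p-value under 0.05, and by Spearman's rho 2 did, Cd14 and Tlr5 with stroma. The largest r with neutrophil markers was 0.693, for Tlr5 (permutation p = 0.0541, adjusted 0.197). Cd14 was lower where stroma markers were higher, with r = -0.920 (permutation p = 0.00159, adjusted 0.0531) and rho = -0.952 (permutation p = 0.00114, adjusted 0.0446), and r = -0.818 without the 2 libraries farthest from the median. After removal of the genotype means r was -0.922. Tlr5 followed the same course with r = -0.828 (permutation p = 0.0067, adjusted 0.0893) and rho = -0.929 (permutation p = 0.00223, adjusted 0.0446), and r = -0.769 without the 2 farthest libraries. Tlr6 (r = -0.765, permutation p = 0.0300, adjusted 0.120) and Tlr2 (r = -0.754, permutation p = 0.0294, adjusted 0.120) were also lower where stroma markers were higher. The sum over 6 stroma markers, all tested, ranged from 373 to 3625 CPM in Thra1PV/+ and from 1239 to 3844 CPM in WT libraries.

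Tlr7 was higher where macrophage markers were higher, with r = 0.882 (permutation p = 0.00265, adjusted 0.0531), rho = 0.833 (permutation p = 0.0154, adjusted 0.123) and r = 0.913 without the 2 farthest libraries. Within WT libraries alone r was 0.529. Tlr7 also had r = 0.633 with stroma markers (permutation p = 0.0891, adjusted 0.274). Tlr9 had r = 0.758 with macrophage markers (permutation p = 0.0285, adjusted 0.120), but -0.404 within WT libraries. The sum over 10 macrophage markers, all tested and 0 called, ranged from 291 to 917 CPM in Thra1PV/+ and from 314 to 610 CPM in WT libraries. Myd88 went the other way with r = -0.811 (permutation p = 0.0118, adjusted 0.118) and rho = -0.857 (permutation p = 0.0107, adjusted 0.107), and r = -0.779 without the 2 farthest. Tlr3 was higher where markers of simple epithelium were higher, with r = 0.766 (permutation p = 0.0234, adjusted 0.120), rho = 0.857 (permutation p = 0.0107, adjusted 0.107) and r = 0.748 without the 2 farthest. Values of that size were not limited to Tlr3. Cd14 had r = 0.788 with the same list (permutation p = 0.0254, adjusted 0.120), rho = 0.714 (permutation p = 0.0576, adjusted 0.256) and r = 0.690 without the 2 farthest, and Tlr2 had r = 0.767 (permutation p = 0.0289, adjusted 0.120), rho = 0.786 (permutation p = 0.0279, adjusted 0.160) and r = 0.881 without them. The sum over these 5 epithelial markers ranged from 1653 to 4154 CPM in Thra1PV/+ and from 1709 to 4660 CPM in WT libraries. Cell types known for Tlr7 and Tlr9, B cells and plasmacytoid dendritic cells, had low marker levels, at 4.75 to 8.58 CPM and 0.913 to 2.30 CPM summed over their markers in Thra1PV/+ and 2.58 to 5.13 CPM and 0.517 to 2.0 CPM in WT libraries. What these cells add to the gene values was not tested.

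**Figure D4:**
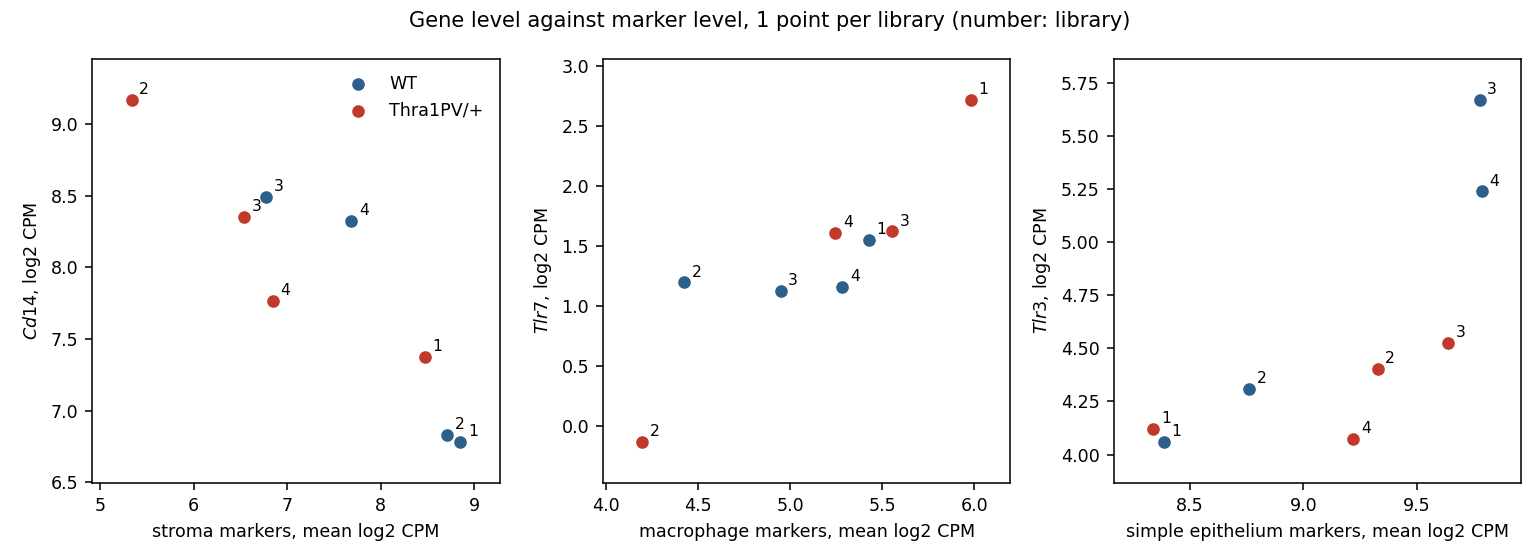
Log2 CPM of Cd14, Tlr7 and Tlr3 against the mean log2 CPM of stroma, macrophage and simple epithelium markers, with 1 point per library numbered within its genotype. Cd14 falls with stroma markers (r = -0.920), Tlr7 climbs with macrophage markers (r = 0.882) and Tlr3 with epithelial markers (r = 0.766), each over 8 libraries.

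The genes most like each of the 10 were found among 13369 tested genes whose mean log2 CPM was 1 or higher, by the root mean square difference of the centred log2 CPM over the 8 libraries. Among the closest were Sowahb to Cd14 (0.0979), Evi2a to Tlr7 (0.110), Ppp4r4 to Tlr6 (0.117), Ptk2b to Myd88 (0.147), Atp2c1 to Tlr3 (0.156), Osbpl3 to Tlr2 (0.168), Ephx1 to Tlr1 (0.176), Gda to Tlr5 (0.288) and Arhgap19 to Tlr9 (0.385). The next closest were Sbno2 to Cd14 (0.126), Slamf7 to Tlr7 (0.144), Pik3cg to Tlr4 (0.159), Arrdc4 to Tlr6 (0.161), Pik3c2a to Tlr3 (0.164), Tnfrsf21 to Myd88 (0.174), Mcub to Tlr2 (0.192), Adgrg1 to Tlr1 (0.203), Cdkn2b to Tlr5 (0.293) and Tlr7 to Tlr9 (0.433). Sowahb had 9.33, 36.1, 19.2 and 12.7 CPM in Thra1PV/+ and 7.52, 7.55, 21.1 and 20.9 CPM in WT libraries, the same order of libraries as Cd14 but for an exchange of Thra1PV/+ library 3 and WT library 4. Tlr9 was the only 1 of the 10 genes that had another of the 10 among its 2 closest.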

How the data were processed

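Libraries were prepared with a stranded mRNA kit from endometrium dissected by laser, 4 from WT and 4 from Thra1PV/+ mice in metestrus. The authors trimmed reads with Trimmomatic, ran salmon for mouse genome mm10 and deposited estimated counts per gene without normalization. The salmon version and annotation release are not given in the sources used here. The authors also deposited TPM values per gene, whose sorted values differed by at most 0.291 TPM between libraries at any rank, and 1 further column of that table was not used. Identifiers without a symbol numbered 105 and held at most 0.00896% of a library's counts.

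Estimated counts were rounded and tested with edgeR 4.0.16 (quasi-likelihood test, TMM, filterByExpr with minimum count 10 and total 15) in R 4.3.3. Calls required at least a 2-fold change with a p-value of no more than 0.1 after Benjamini-Hochberg adjustment over all 18174 tested genes. Log2 CPM used a prior count of 2. The F statistic of each gene gave the standard error of its log2 fold change. Gene positions, exon lengths and sequence were taken from GENCODE M21 (GRCm38), where 49550 of 52220 identifiers had the same version. Words of 31 bases were compared between transcripts. The fit was tested on simulated data. The 10 genes and the lists were chosen with earlier results of these data known.

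The genes named were all 10, called genes of the pathway and response lists and the 2 of smallest unadjusted p in each role group, the 2 genes most like each of the 10, and markers where a result turned on them. Ly96 and Cxcl2 were named outside this rule. A gene that this rule names is not reported here. Alternatives were DESeq2 1.42.0 with its own filter, its size factors in edgeR, no filter on low counts, replicate number as a block, limma 3.58.1 on log2 of the deposited TPM with a pseudocount of 1 or 0.1, voom with sample quality weights, each library left out, an unadjusted p-value of 0.05 as threshold, and, added after the data were seen, WT library 1 and Thra1PV/+ library 2 left out and Tlr1 and Tlr6 summed.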

Additional observations from a re-analysis of the deposited data

Results flagged for a closer look

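In a group of 4, a library was singled out where its gap to the nearest other, divided by the range of the group, exceeded Dixon's 95% critical value. Of 44 groups examined, 2 were singled out, where about 2.2 are expected by chance. Tlr6 in WT library 3 had a log2 CPM of 1.91 against 1.22 to 1.25 in the other WT libraries, with a gap of 0.949 of the range. Tlr7 in WT library 1 had a log2 CPM of 1.56 against 1.13 to 1.2 in the other WT libraries, with a gap of 0.836 of the range.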

How the results depend on the processing

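In each alternative run, 0 of the 10 genes was called. With an unadjusted p-value under 0.05 in place of the call rule, the main edgeR fit gave 0 of the 10 genes. It gave 3 of the 35 other pathway genes, and 9.77% of all tested genes passed. In other settings some of the 10 genes passed this unadjusted threshold. The share of all genes that passed in those settings was not counted, so these passes are not read as differences. Tlr6 did with DESeq2 and without WT library 3, and Tlr5 with voom and without WT library 3. Tlr3 did without WT library 1, alone or together with Thra1PV/+ library 2, and Tlr9 without Thra1PV/+ library 2. The number of all genes called, 180, was 791 with DESeq2, 311 with voom and sample quality weights, 94 without WT library 1 and Thra1PV/+ library 2, 1775 at an unadjusted p-value under 0.05, and 81 to 167 with single libraries left out, lowest without Thra1PV/+ library 3. Replicate numbers did not pair the libraries: deviations of same-numbered libraries correlated at 0.27, -0.44, 0.34 and -0.16, and 1 of 4 numbers correlated best with its own. With the replicate number as a block, 82 genes were called. Of 162 values for the 10 genes under other settings, 149 kept their sign and 13 turned it. Tlr1 became 0.11 and 0.14 with limma on log2 TPM at a pseudocount of 1 and 0.1, 0.021 with voom, and 0.38 without WT library 3 (single libraries left out: -0.35 to 0.38). Tlr2 ranged from -0.28 without Thra1PV/+ library 2 to 0.40 with single libraries left out, with -0.01 without Thra1PV/+ library 3, -0.10 without WT library 1 and -0.24 without WT library 2, and was -0.45 without WT library 1 and Thra1PV/+ library 2, where Cd14 was -0.14 and Myd88 -0.69. With single libraries left out, Tlr4 ranged from -0.49 to 0.17, highest without WT library 3, and Myd88 from -0.53 to 0.045, highest without WT library 2. Tlr9 was 0.17 with limma on log2 TPM at a pseudocount of 1. Tlr6 summed with Tlr1 was -0.057, which is among the 13 although most counts of that sum were those of Tlr1. The cause of these turns was not tested. Depth limited Tlr9 most, at 14 counts in its lowest library.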

Other observations

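Lymphocyte and granulocyte markers were examined beside the receptors. All 5 T cell markers had fitted differences above 0, with a median log2 fold change of 1.39, and 4 of 5 had an unadjusted p-value under 0.05 in edgeR, against 5.05% of all tested genes in that direction, but 0 was called, against 0.99% of all tested genes. Their summed level was 4.50 to 23.3 CPM in Thra1PV/+ and 2.63 to 7.70 CPM in WT libraries. Cd4, the co-receptor of helper T cells, was at 1.82 (edgeR adjusted p = 0.380), the largest of the 5. Cd8a was the smallest at 0.45 (edgeR adjusted p = 0.901), with WT library 4, at 1.03 CPM, above all Thra1PV/+ libraries. Of 3 tested B cell markers, 2 were above 0 and 1 had an unadjusted p-value under 0.05, with 0 called, beside the same shares. Cd79a was at 2.58 (edgeR adjusted p = 0.341), Cd79b at 0.50 (edgeR adjusted p = 0.667) and Ms4a1 at -0.18 (edgeR adjusted p = 0.929). Of 6 tested neutrophil markers, 5 were above 0 and 4 had an unadjusted p-value under 0.05, with 0 called, beside the same shares of all tested genes. Ly6g, the exception, was at -0.24 (edgeR adjusted p = 0.957) and was highest in WT library 3, at 2.13 CPM. Squamous epithelium markers were higher in Thra1PV/+ libraries as well, and which cells the S100a8 and S100a9 RNA came from was not tested. Csf3r, the receptor of granulocyte colony-stimulating factor, had 18.7, 69.4, 46.2 and 26.7 CPM in Thra1PV/+ and 9.96, 3.38, 4.46 and 23.6 CPM in WT libraries, a log2 fold change of 1.96 (edgeR adjusted p = 0.381), with WT library 4 inside the Thra1PV/+ range.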
